A study of Mus musculus with 12 samples.

Results

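Hematopoietic stem cells (HSCs) that carried the activated NrasG12D allele on 1 chromosome (NrasG12D/+) were set directly against HSCs that had lost 1 copy of Tet2 (Tet2+/-). The 6 libraries of the 2 single mutants, 3 of each genotype, were taken by genotype label from the 12 libraries of the study, and the genes compared were those with at least 1 RPKM (reads per kilobase of gene, scaled to library size, with a log2 RPKM of 0 or more) in at least 3 of those 6 libraries. That left 14139 of 18546 genes. The other 6 libraries came from wild-type mice and from compound mutants with both alleles (NrasG12D/+;Tet2+/-), again 3 of each.

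All mice were C57BL/6 and 10 to 12 weeks old, and no treatment is named for any group. The cells were sorted from bone marrow by the SLAM scheme for cKit, Sca1 and CD150 on their surface, without CD48 or lineage markers. The labels do not say which promoter or recombinase, if any, placed the Nras allele in the cells. The design text gives 3 mice per genotype without tying each library to 1 mouse, so p-values measure the spread between these libraries. Total RNA was depleted of ribosomal and mitochondrial transcripts before stranded library construction.

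Nras is a small GTPase that relays growth factor signals to the RAF-MEK-ERK and PI3K-AKT cascades, and the G12D substitution keeps it in its active, GTP-bound form. Tet2 is a dioxygenase that oxidises 5-methylcytosine and so starts the removal of DNA methylation. Both genes are recurrently mutated in chronic myelomonocytic leukemia, and HSCs, which divide rarely, keep the blood system supplied for life.

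Reads in genes, recovered from the deposited values, numbered 28750542 to 36890942 in the Nras libraries and 26376902 to 34533120 in the Tet2 libraries. The genes at 0 reads ranged from 1073 to 3268 in Nras libraries and from 1265 to 2512 in Tet2 libraries, with the most in Nras replicate 2. Sex, read from Xist and Y-linked genes, was not balanced, with 1 male library among the Nras mutants and 2 among the Tet2 mutants. HSC markers were present in all 6 libraries, at 66.3 to 86.0 RPKM for Kit, 38.6 to 68.1 for Hlf, 8.71 to 19.7 for Procr, 7.75 to 10.6 for Mecom and 5.26 to 8.98 for Slamf1, which encodes CD150. Cd48, which the gate excludes, had 0 reads in replicates 1 and 2 of both single mutants. It had 98 reads in Nras replicate 3 and 56 in Tet2 replicate 3 (1.28 and 1.01 RPKM). A count of 0 reads does not show absence. Nras itself stood at 5.99, 4.76 and 6.47 RPKM in Nras mutants and 5.21, 6.35 and 6.70 in Tet2 mutants, and Tet2 at 7.03, 5.27 and 4.83 against 5.23, 4.09 and 4.82. Both pairs overlapped (log2 difference -0.09 ± 0.20 SE for Nras and 0.26 ± 0.20 for Tet2), and these totals do not separate the alleles of either gene.

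The direct comparison asks where the 2 alleles, one that activates signaling and one that lowers a DNA demethylation enzyme, leave HSCs in different states. It equals the difference between the 2 alleles' effects, because the wild-type libraries cancel. Gem, a GTP-binding protein of the RGK family that binds calcium channel subunits, was the 1 gene of 14139 that rose in Nras mutants relative to Tet2 mutants (0.00707%), and 0 fell (0%), by limma at a Benjamini-Hochberg adjusted p under 0.05. Among genes that did not pass, every measured gene of the G2/M and mitosis list stood higher in Nras mutants, with most of the replication and histone genes, while most HSC identity and imprinted genes stood higher in Tet2 mutants. Unadjusted p was under 0.05 for 391 genes higher in Nras mutants (2.77%) and 335 lower (2.37%). The 3 Nras values lay above the 3 Tet2 values for 868 genes (6.14%) and below them for 871 (6.16%). The median log2 difference over all 14139 genes was -0.01, with 48.5% of genes positive. An exact test of 3 against 3 libraries cannot go below p = 0.1, so all p-values below come from the limma fit across all genes.

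Gem (ENSMUSG00000028214, protein coding, mm10 chromosome 4, 11704457 to 11714752, plus strand) stood at 30.8, 55.1 and 27.2 RPKM in the 3 Nras libraries and at 3.23, 3.39 and 5.95 in the 3 Tet2 libraries. The groups were far apart, since the lowest Nras library held more than the highest Tet2 library by several fold. These values rested on 3676 to 6454 reads in Nras libraries and 351 to 631 in Tet2 libraries. The log2 difference was 3.16 ± 0.33 SE (8.91-fold, 95% interval 2.43 to 3.88, limma adjusted p = 0.0285). In wild-type libraries Gem stood at 5.76, 7.05 and 4.82 RPKM, next to the Tet2 mutants, and in compound mutants at 46.5, 38.3 and 28.0, next to the Nras mutants. The male libraries alone held 30.8 against 3.23 and 5.95 RPKM, and the female libraries 55.1 and 27.2 against 3.39. The call passed in 13 of 25 alternative analyses and the direction held in all 25, with log2 differences from 2.64 to 3.44 and adjusted p from 0.00757 to 0.242. It was lost with only the 2 single-mutant groups in the fit (adjusted p = 0.18), with sex as a term (0.095), with voom on recovered reads (0.119) and without Nras replicate 2 and wild-type replicate 1 together (0.142), and in 1 further fit given with the processing alternatives. Of single libraries, leaving out Nras replicate 1 or 2, Tet2 replicate 1 or 2, wild-type replicate 3 or compound replicate 1 or 3 also ended the call, with adjusted p from 0.0508 to 0.242.

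**Figure D1:**
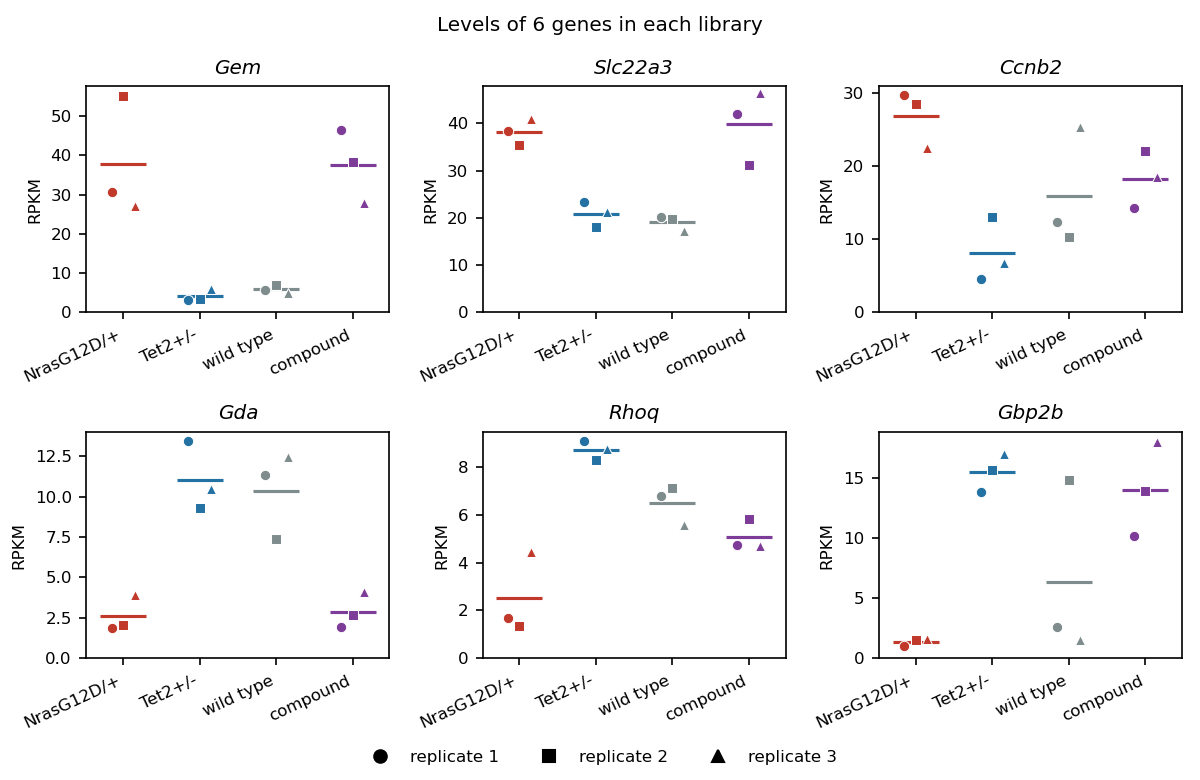
RPKM (y axis, linear, from 0) of Gem, Slc22a3, Ccnb2, Gda, Rhoq and Gbp2b in each of the 12 libraries, by genotype (x axis). Symbols mark the replicate number and horizontal lines the mean of 3 libraries; Gem sits between 27.2 and 55.1 in Nras mutants and between 3.23 and 5.95 in Tet2 mutants.

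Genes of G2 and mitosis formed the most uniform group. All 35 of 35 members of that list passed the filter on level and all 35 stood higher in Nras mutants, against 48.5% of all genes, with a median log2 difference of 0.73 against -0.01 over all genes. Of the 35, 16 had an unadjusted p under 0.05 (45.7%, against 2.77% of all genes) and 23 had 3 Nras values above the 3 Tet2 values (65.7%, against 6.14%), while 0 passed singly after adjustment over all genes. The list was chosen with earlier results of these data known, so its count is a description and not independent evidence.

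Mki67, the Ki-67 antigen that coats mitotic chromosomes, stood at 137, 138 and 127 RPKM in Nras mutants and 84.3, 69.3 and 72.5 in Tet2 mutants. Top2a, the topoisomerase that untangles replicated chromosomes, stood at 43.3, 31.6 and 42.1 against 24.6, 24.9 and 24.8 RPKM. The Nras and Tet2 values did not overlap for either gene, and the SD of the 3 Tet2 values of Top2a was 0.158 RPKM. The log2 differences were 0.84 ± 0.18 SE for Mki67 and 0.64 ± 0.13 for Top2a (limma adjusted p = 0.527 and 0.487).

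Ccnb2, a B-type cyclin that partners the mitotic kinase, stood at 29.8, 28.6 and 22.6 RPKM in Nras mutants and 4.61, 13.1 and 6.79 in Tet2 mutants, the widest gap of the list (log2 1.85 ± 0.41, 3.60-fold, limma adjusted p = 0.527). Foxm1, the transcription factor that drives many G2/M genes, stood at 5.22, 7.94 and 5.11 against 3.01, 3.02 and 3.08 RPKM (log2 0.97 ± 0.23). Kif11, the kinesin that separates spindle poles, stood at 39.7, 32.2 and 31.1 against 19.4, 22.4 and 20.8 (log2 0.71 ± 0.18). These 3 genes also had no overlap between the single mutants. Cdk1, the mitotic kinase itself, stood at 6.11, 7.17 and 6.61 against 3.94, 3.70 and 3.61 RPKM, and Hmmr, a spindle protein, at 9.74, 10.3 and 7.84 against 6.61, 4.32 and 5.56, again without overlap. The smallest p of these genes after adjustment was 0.487, so none is called singly.

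Summarised per library as the median over members of the log2 level relative to each gene's mean over 12 libraries, the list stood at 0.45, 0.15 and 0.37 in Nras mutants and -0.36, -0.30 and -0.38 in Tet2 mutants. Wild-type libraries lay at -0.15, -0.53 and -0.18 and compound mutants at 0.41, 0.18 and 0.53. The male libraries held 0.45 against -0.36 and -0.38, and the female libraries 0.15 and 0.37 against -0.30, so that the order was the same in each sex. The median difference ranged from 0.62 to 0.78 over 11 alternatives, among them the fits that left out each of the 6 libraries. In a bulk sample, more dividing cells and more of these transcripts per dividing cell cannot be told apart.

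The promoters of these genes are shown because the members stood higher together and the class is known for a shared promoter architecture, a cell cycle homology region (CHR) near the start site with CCAAT boxes before it. CHR elements are bound by the DREAM complex, which holds the genes silent outside the cycle, and CCAAT boxes by the factor NF-Y. The windows run from 250 bases before to 50 after the RefSeq start (build GRCm38.p6), are printed 5' to 3' on the gene's strand, and carry in capitals each match to the CHR letters TTTGAA or TTCGAA and to CCAAT on either strand, where a match on the opposite strand reads TTCAAA or ATTGG. The 4 genes are Top2a (chr11:99024140-99024439, minus strand), Ccnb2 (chr9:70421505-70421804, minus strand), Mki67 (chr7:135716330-135716629, minus strand) and Kif11 (chr19:37376132-37376431, plus strand).
Top2a: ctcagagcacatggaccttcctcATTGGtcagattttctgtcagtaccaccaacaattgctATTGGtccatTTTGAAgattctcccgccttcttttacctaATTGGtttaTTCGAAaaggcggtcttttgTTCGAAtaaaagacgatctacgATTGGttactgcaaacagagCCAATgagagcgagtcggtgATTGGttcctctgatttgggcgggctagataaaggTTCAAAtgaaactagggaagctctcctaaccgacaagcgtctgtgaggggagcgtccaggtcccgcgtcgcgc
Ccnb2: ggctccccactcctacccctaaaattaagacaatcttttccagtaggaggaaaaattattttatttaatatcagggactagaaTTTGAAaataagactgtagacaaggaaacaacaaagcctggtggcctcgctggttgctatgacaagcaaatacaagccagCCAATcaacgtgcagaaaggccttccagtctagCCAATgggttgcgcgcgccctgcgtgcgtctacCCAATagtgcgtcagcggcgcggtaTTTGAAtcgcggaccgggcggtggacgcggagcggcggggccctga
Mki67: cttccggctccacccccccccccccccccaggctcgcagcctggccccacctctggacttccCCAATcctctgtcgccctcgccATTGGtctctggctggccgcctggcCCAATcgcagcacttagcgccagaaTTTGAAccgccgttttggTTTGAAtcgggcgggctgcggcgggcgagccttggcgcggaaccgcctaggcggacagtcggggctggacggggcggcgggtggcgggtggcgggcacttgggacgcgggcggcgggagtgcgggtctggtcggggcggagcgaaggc
Kif11: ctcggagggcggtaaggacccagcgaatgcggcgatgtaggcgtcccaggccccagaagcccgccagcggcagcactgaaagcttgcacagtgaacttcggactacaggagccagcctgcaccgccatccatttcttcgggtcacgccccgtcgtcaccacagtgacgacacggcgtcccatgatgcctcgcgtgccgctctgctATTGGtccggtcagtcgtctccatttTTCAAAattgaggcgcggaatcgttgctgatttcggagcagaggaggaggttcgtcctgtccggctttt

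Of the 35 genes, 30 had a window in the promoter table. A CHR match was present in 26 of the 30 (86.7%), against 21.7% of all 27025 symbols in that table, and a CCAAT match in 25 of 30 (83.3%, against 41.1%). For the S phase list, the same counts were 5 of 29 genes (17.2%) for CHR and 17 of 29 (58.6%) for CCAAT. The cAMP response element TGACGTCA was found in 1 of 30 G2/M genes (3.33%), against 2.03% of all symbols. These shares count a gene with several windows if any of them holds a match. In 1 window per gene, 26 of 37 CHR matches lay between 30 bases before and 50 bases after the start, and 25 of 58 CCAAT matches lay 30 to 100 bases before it. Among the printed genes, Mki67 held its CHR matches outside the first of these ranges, at -113 and -95 bases from the start. Its CCAAT matches lay at -186, -164 and -139, outside the second range. Ccnb1 and Cenpe had CCAAT matches without a CHR match, and Birc5 and Nusap1 had neither. A match is a stretch of letters and not a measured binding site, and no test was run on these shares.

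**Figure D2:**
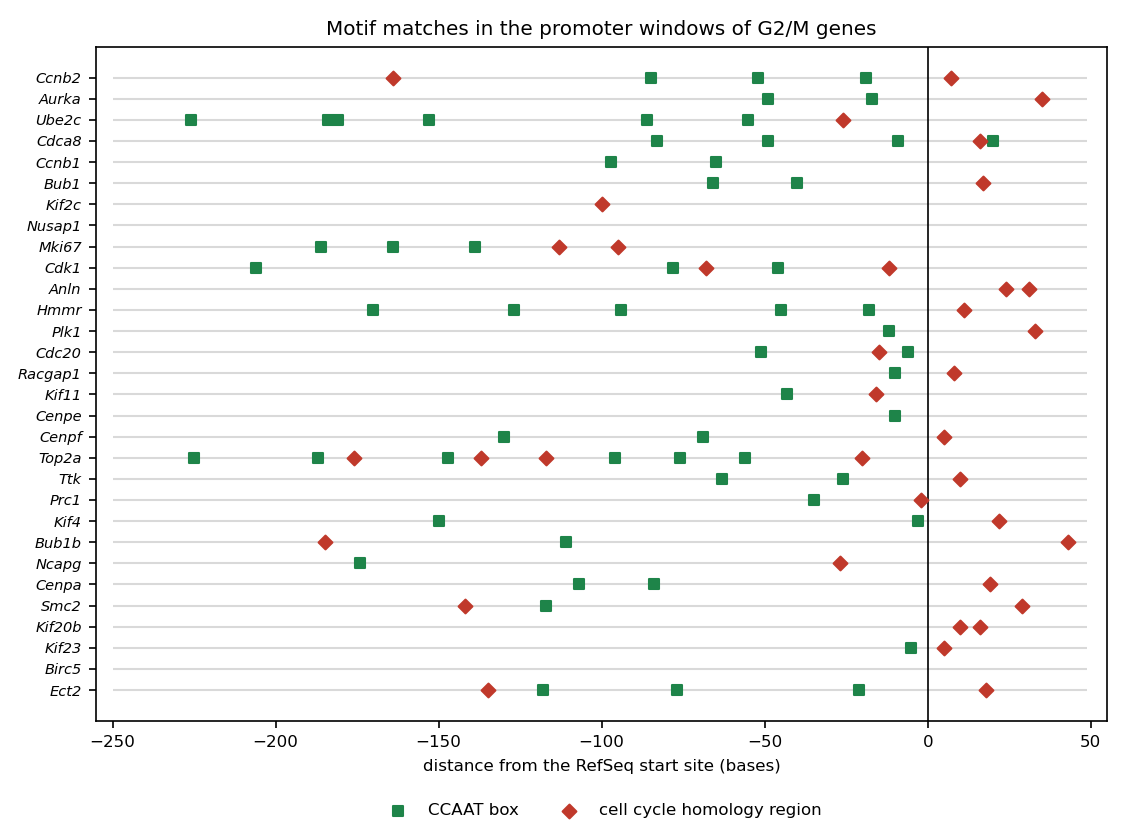
Position of each CHR match (red diamonds) and CCAAT match (green squares) in the promoter windows of 30 G2/M genes, 1 window per gene, as bases from the RefSeq start site (x axis), with genes ordered from the smallest (bottom) to the greatest (top) log2 difference between Nras and Tet2 mutants. CHR matches gather at the start site, where 26 of 37 lie, and CCAAT matches lie mostly before it.

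Replication genes followed with a smaller difference. All 35 members of the S phase list were tested, 33 stood higher in Nras mutants, and the median log2 difference was 0.38. Of the 35, 5 had an unadjusted p under 0.05 with Nras above (14.3%, against 2.77% of all genes). Nras values lay above all Tet2 values for 10 (28.6%, against 6.14% of all genes), and 0 passed after adjustment. Ccne2, an E-type cyclin that drives entry into S phase, stood at 1.76, 3.57 and 2.89 RPKM in Nras mutants and 0.761, 0.772 and 0.681 in Tet2 mutants (log2 1.84 ± 0.37, limma adjusted p = 0.487). Ccne2 passed the filter on level only through the Nras libraries, and it stood at 2.05, 1.41 and 1.77 RPKM in wild type, above all 3 Tet2 libraries. Pold1, the catalytic subunit of DNA polymerase delta, stood at 6.73, 4.79 and 6.24 against 3.64, 3.28 and 3.64 RPKM (log2 0.74 ± 0.19). Cdc45, a subunit of the replicative helicase, stood at 6.86, 9.30 and 10.3 against 5.72, 4.58 and 5.56 (log2 0.73 ± 0.24). Rpa2, a single-strand binding protein, stood at 8.12, 13.3 and 9.91 against 6.11, 7.59 and 6.62 (log2 0.60 ± 0.23). None of these values overlapped between the single mutants. The 2 members that stood lower in Nras mutants were Chaf1b (log2 -0.08), whose sign turned under 5 of the 25 alternatives, and Orc1, at 4.24, 0.0155 and 1.76 against 3.14, 2.63 and 2.64 RPKM (log2 -2.52 ± 1.64), with 2 reads in Nras replicate 2.

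Replication-dependent histones, made in bulk only while DNA is copied, stood higher in Nras mutants for 34 of 35 tested members, with a median log2 difference of 0.60. Their transcripts lack poly(A) tails, which total RNA libraries retain, and near-identical copies can share reads, so single copies are uncertain. Of the 35, 12 had an unadjusted p under 0.05 with Nras above (34.3%, against 2.77% of all genes). No overlap with Nras above was seen for 11 (31.4%, against 6.14%), with 0 past the adjusted threshold. Hist1h1b, a linker histone, stood at 53.6, 103.5 and 65.8 RPKM in Nras mutants and 41.1, 31.6 and 34.1 in Tet2 mutants (log2 1.01 ± 0.22, limma adjusted p = 0.526). Hist1h4f stood at 20.7, 41.9 and 31.6 against 3.56, 4.07 and 9.96 RPKM (log2 2.52 ± 0.66), Hist1h2bf at 15.1, 18.0 and 25.2 against 9.21, 9.07 and 9.76 (log2 1.03 ± 0.26) and Hist1h3c at 28.6, 22.2 and 30.3 against 11.4, 12.7 and 20.1 (log2 0.91 ± 0.25). Nras values lay above Tet2 values for these 4 genes. Hist1h4a was the 1 member that stood lower (log2 -0.31 ± 0.64), and its sign turned without Tet2 replicate 2 or 3. H1f0, a linker histone outside that list that is made throughout the cycle, also stood higher, at 68.4, 80.2 and 55.5 against 45.3, 49.8 and 41.6 RPKM (log2 0.57 ± 0.17).

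Regulators of G1 were mixed, with 9 of 16 tested members higher in Nras mutants and a median log2 difference of 0.13. Cdk6, the kinase that moves HSCs out of quiescence, stood at 41.8, 32.2 and 38.8 RPKM in Nras mutants against 26.9, 24.7 and 26.3 in Tet2 mutants (log2 0.53 ± 0.17). Ccnd1, a D-type cyclin, stood at 22.95, 28.1 and 19.7 against 19.1, 7.44 and 13.5 RPKM (log2 0.91 ± 0.30). Both genes stood higher in every Nras library than in any Tet2 library. Of the inhibitors, Cdkn2d (p19) stood at 14.4, 26.6 and 17.4 against 7.48, 14.2 and 10.9 RPKM (log2 0.84 ± 0.27), above with no overlap. Cdkn1c (p57), which holds HSCs quiescent, stood the other way, at 1.52, 4.05 and 5.99 against 6.68, 7.82 and 10.2 RPKM (log2 -1.28 ± 0.51). None of the 4 passed (limma adjusted p from 0.784 to 0.908).

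**Figure D3:**
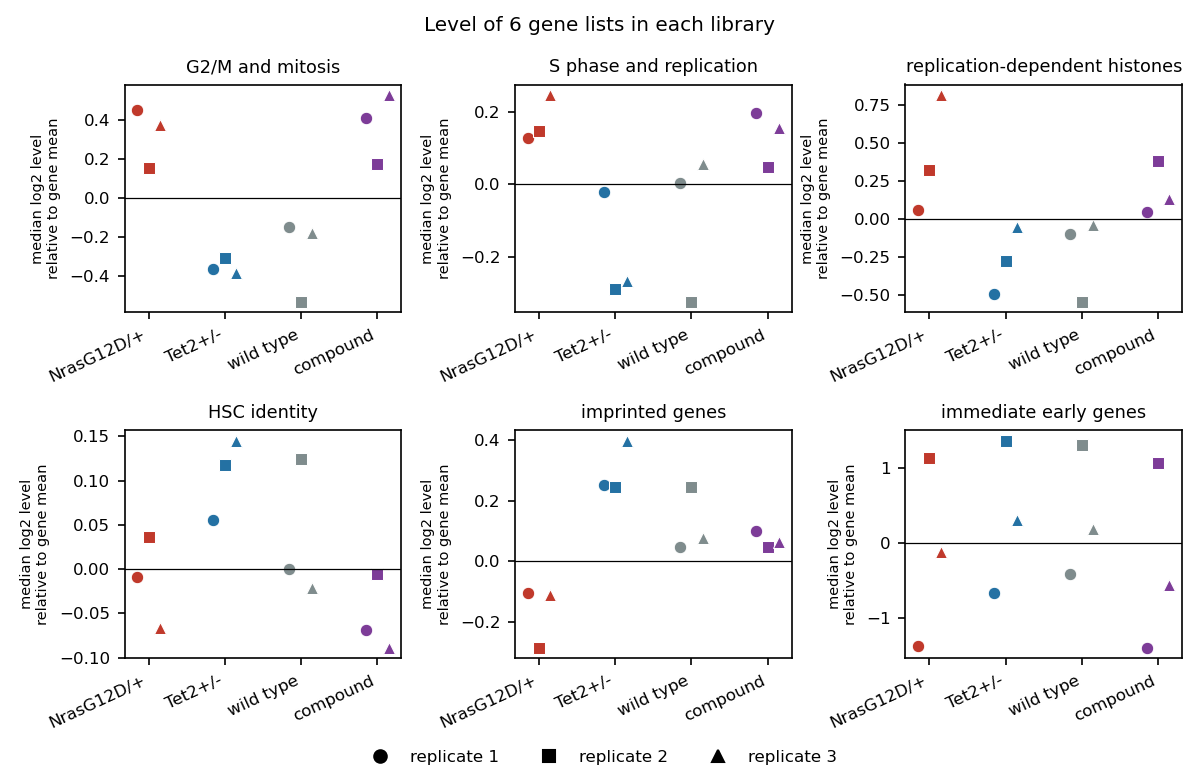
Level of 6 gene lists in each library, as the median over members of the log2 level relative to the gene's mean over 12 libraries (y axis), by genotype (x axis), with symbols for the replicate number. The 3 Nras libraries lie above the 3 Tet2 libraries for G2/M, S phase and histone genes and below them for HSC identity and imprinted genes, while the immediate early genes follow the replicate number.

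Genes induced by ERK and those that feed back on it stood higher in Nras mutants for 8 of 14 tested members, with a median log2 difference of 0.15, and 5 of the 14 had an unadjusted p under 0.05, all with Nras above (35.7%, against 2.77% of all genes). Groups did not overlap for 5 with Nras above (35.7%, against 6.14%) and for 1 with Tet2 above (7.14%, against 6.16%). Dusp6, the phosphatase that switches ERK off, stood at 24.97, 38.2 and 23.6 RPKM in Nras mutants and 15.7, 21.9 and 13.8 in Tet2 mutants (log2 0.75 ± 0.22). Etv5, an ETS transcription factor downstream of ERK, stood at 7.10, 9.56 and 8.12 against 5.02, 2.45 and 5.17 RPKM (log2 1.04 ± 0.43). The inhibitors Spred1 (29.3, 24.8 and 27.5 against 23.5, 21.9 and 22.4 RPKM) and Spred2 (9.56, 13.3 and 10.2 against 8.96, 6.63 and 7.69) differed by less, at log2 0.27 ± 0.09 and 0.50 ± 0.19. With Ccnd1, these are the 5 members, and their Nras values lay above all Tet2 values without passing the adjusted threshold (limma adjusted p from 0.729 to 0.935). Dusp4, another ERK phosphatase, overlapped between the single mutants, at 15.4, 16.4 and 11.4 against 12.6, 8.97 and 9.93 RPKM (log2 0.45 ± 0.50). The 6 members that stood lower were Spry2, Dusp10, Sh2b3, Dusp5, Spred3 and Myc, with log2 differences from -0.50 to -0.07, none at an unadjusted p under 0.05. Relative to wild type the list median was 0.02 in Nras mutants, with 7 of 14 members higher, and 0.025 in compound mutants.

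The Ras genes and their regulators as a list did not separate, with 17 of 31 tested members higher and a median log2 difference of 0.06. Rras2, a Ras relative, had the smallest p of the list, with overlapping groups, at 5.82, 2.47 and 3.64 against 10.2, 5.36 and 5.82 RPKM (log2 -0.87 ± 0.36). In the PI3K and mTOR list 11 of 22 stood higher, with a median of -0.02. Against 2.37% of all genes, 2 of the 22 had an unadjusted p under 0.05 and stood lower, and 0 stood higher at that threshold. The 2 lower members were Pik3cd, the leukocyte catalytic subunit (3.93, 4.71 and 6.41 against 7.70, 11.5 and 7.71 RPKM, log2 -0.84 ± 0.28), and Pik3r1, the main regulatory subunit (29.7, 29.98 and 31.1 against 47.1, 36.0 and 35.8, log2 -0.38 ± 0.13). Csf2rb, the beta chain of the IL-3 and GM-CSF receptors, stood at 6.04, 9.77 and 8.36 against 11.8, 14.4 and 11.9 RPKM (log2 -0.68 ± 0.21), the smallest p among 28 tested cytokine receptors, of which 12 stood higher. Tet2 values lay above Nras values for Pik3cd, Pik3r1 and Csf2rb. Groups of the cytokine receptors did not overlap for 4 with Nras above (14.3%, against 6.14% of all genes). They did not overlap for 2 with Tet2 above (7.14%, against 6.16%). In the PI3K and mTOR list these counts were 0 and 3 (13.6%).

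Immediate early genes, transcribed within minutes of a stimulus, ordered by replicate number rather than by genotype. The list stood at -1.38, 1.14 and -0.13 in Nras mutants, -0.67, 1.36 and 0.31 in Tet2 mutants, -0.42, 1.30 and 0.19 in wild type and -1.40, 1.07 and -0.55 in compound mutants. Of 20 tested members, 19 were highest in replicate 2 of the Nras mutants, 18 in replicate 2 of the Tet2 mutants and 17 in replicate 2 of both wild type and compound mutants. Egr1, a zinc finger factor of this class, stood at 0.824, 35.5 and 5.89 RPKM in Nras mutants and 4.47, 50.8 and 14.03 in Tet2 mutants. All libraries numbered 2 were female, and 3 of the 4 numbered 3 were female too. The median difference between Nras and Tet2 mutants was -0.25 and changed sign when Nras replicate 1 or Tet2 replicate 2 was left out (0.31 and 0.17), so no direction is given for this list. Whether the sort or its handling differed by number was not tested.

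HSC identity genes stood lower in Nras mutants for 32 of 44 tested members, with a median log2 difference of -0.19 that ranged from -0.24 to -0.15 over 11 alternatives. Of the 44, 5 had an unadjusted p under 0.05 and stood lower, against 2.37% of all genes. Another 3 had one and stood higher (6.82%, against 2.77% of all genes), and 0 passed after adjustment. Tet2 values lay above all Nras values for 8 (18.2%, against 6.16% of all genes) and below for 3 (6.82%, against 6.14%).

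Hlf, a transcription factor of self-renewing HSCs, stood at 53, 48.7 and 38.6 RPKM in Nras mutants and 65.8, 68.1 and 66.7 in Tet2 mutants (log2 -0.53 ± 0.14). Fgd5, a guanine exchange factor used to mark HSCs, stood at 8.48, 9.92 and 5.598 against 14.5, 12.9 and 12.6 RPKM (log2 -0.77 ± 0.24). Ifitm1, a membrane protein of primitive HSCs, stood at 9.12, 23.2 and 22.5 against 34.5, 30.3 and 38.1 (log2 -1.02 ± 0.31). These 3 genes, with Cdkn1c above and Mllt3, a chromatin reader of stem cells (12.6, 10.4 and 9.55 against 12.8, 14.5 and 15.8 RPKM), are the 5 lower members, all without overlap. Wild-type libraries held 47.1, 63.5 and 54.4 RPKM of Hlf, overlapping the Nras mutants, and 11.3, 15.2 and 11.2 of Fgd5, above all 3 Nras libraries.

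The 3 members that stood higher in Nras mutants were Gata2, Itga2b and Ly6a. Gata2, a transcription factor of stem and progenitor cells, stood at 67.1, 76.4 and 56.3 against 45.3, 54.4 and 47.9 RPKM (log2 0.43 ± 0.14). Itga2b, the CD41 integrin found on megakaryocyte-biased HSCs, stood at 13.5, 16.9 and 21.1 against 10.3, 10.3 and 9.47 (log2 0.75 ± 0.27), and Ly6a, which encodes the sorting marker Sca1, at 5.51, 8.32 and 7.04 against 3.99, 3.51 and 4.92 (log2 0.74 ± 0.33). Each of these groups was free of overlap, and limma adjusted p for the 8 genes ran from 0.637 to 0.935.

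**Figure D4:**
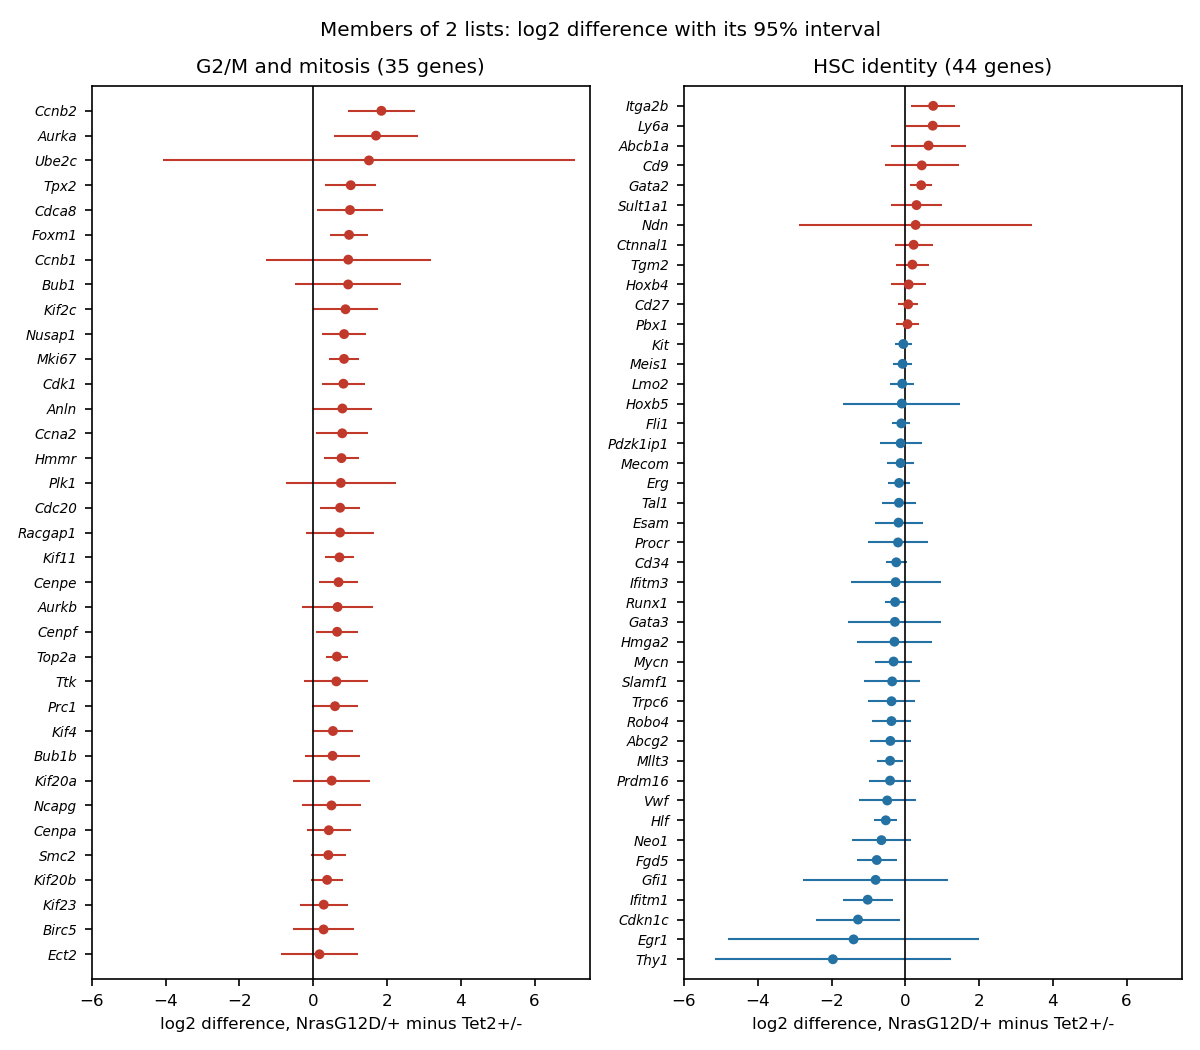
Log2 difference of each tested member of the G2/M list (left, 35 genes) and the HSC identity list (right, 44 genes) between Nras and Tet2 mutants (x axis), with 95% intervals as lines and genes as rows. All 35 G2/M points lie right of 0, and 32 of 44 HSC identity points lie left of it, many with intervals that cross 0.

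Markers of other cells were checked beside these results. The summed level of 20 megakaryocyte genes in the table was 190 to 235 RPKM in Nras libraries and 165 to 190 in Tet2 libraries, with 10 of 17 tested members higher and a median log2 difference of 0.26. Selp, P-selectin, stood at 14.1, 12.5 and 14.5 against 2.12, 8.30 and 4.84 RPKM (log2 1.64 ± 0.54). Pf4, platelet factor 4, stood at 5.28, 7.85 and 17.4 against 0.00639, 2.65 and 2.81 RPKM, where Tet2 replicate 1 had 0 reads, so that its fitted difference has no fixed size. Nras values lay above Tet2 values for both, and with Itga2b and Plek (log2 0.70 ± 0.31) the megakaryocyte list had 4 members at an unadjusted p under 0.05 (23.5%, against 2.77% of all genes), and 4 without overlap and Nras above (23.5%, against 6.14%).

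The summed erythroid level was 250 to 336 RPKM in Nras libraries and 237 to 292 in Tet2 libraries, with 8 of 12 tested members higher and 4 lower (Hba-a1, Hba-a2, Car2 and Tfrc). The 1 erythroid member with an unadjusted p under 0.05 (8.33%, against 2.77% of all genes) was Aqp1, a water channel. It stood at 10.2, 19.2 and 18.8 against 7.80, 7.68 and 3.74 RPKM (log2 1.34 ± 0.37). Granulocyte and monocyte genes (5 of 7 tested lower, median -0.56, which turned to 0.01 without Nras replicate 1) summed to 109 to 135 against 129 to 146 RPKM, with Prtn3, proteinase 3 of neutrophil granules, at 7.80, 4.46 and 5.76 against 10.1, 12.8 and 10.9 (log2 -0.94 ± 0.25). B and T cell genes summed to 8.84 to 19.9 against 6.05 to 12.0 RPKM, and stroma and endothelium to 54.3 to 65.7 against 57.6 to 64.9. Mast cell, basophil and eosinophil genes summed to 58.9 to 82.4 against 47.1 to 56.8 RPKM, with Gata2 at 45.3 to 76.4 among them. The sums cover only markers present in the table, which held 18 of 22 erythroid and 17 of 26 granulocyte and monocyte markers. It held 8 of 22 for B and T cells, 13 of 22 for stroma and endothelium and 4 of 17 for mast cells, basophils and eosinophils. No list had a member in the table at 0 reads in all 6 libraries. The part of these cells in the differences of the HSC and cell cycle lists was not tested.

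Antigen presentation genes stood higher in Nras mutants for 19 of 21 members, with a median log2 difference of 0.24. An unadjusted p under 0.05 with Nras above was found for 4 of the 21, against 2.77% of all genes, and 0 passed after adjustment. No overlap with Nras above was seen for 7 (33.3%, against 6.14%). H2-Q7 and H2-Q6, MHC class Ib genes whose near-identical sequences can share reads, stood at 45.4, 57.8 and 50.1 against 37.7, 35.2 and 37.2 RPKM and at 164, 167 and 157 against 113, 129 and 128 (log2 0.47 ± 0.12 and 0.41 ± 0.11). Psmb9, an immunoproteasome subunit, stood at 10.9, 11.6 and 8.09 against 7.87, 6.30 and 6.34 RPKM (log2 0.57 ± 0.18). H2-Ab1, an MHC class II chain, stood at 12.9, 28.0 and 19.6 against 9.45, 10.7 and 12.4 (log2 0.83 ± 0.35), while wild-type libraries held 24.4, 17.6 and 17.3, above all 3 Tet2 libraries. The 2 members that stood lower were Tapbp (log2 -0.08) and Psmb8 (log2 -0.21), both positive without Nras replicate 1. Interferon response genes stood higher for 26 of 36, with a median of 0.20 and 1 member at an unadjusted p under 0.05 (2.78%, close to the 2.77% of all genes), the GTPase Igtp, at 12.4, 21.9 and 12.3 against 9.72, 7.604 and 7.24 RPKM (log2 0.88 ± 0.32).

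Imprinted genes, which are expressed from 1 parental copy under the control of DNA methylation, stood lower in Nras mutants, and so higher in Tet2 mutants, for 9 of 11 tested members, with a median log2 difference of -0.36 that ranged from -0.44 to -0.31 over 11 alternatives. Of the 11, 4 had an unadjusted p under 0.05 and stood lower (36.4%, against 2.37% of all genes). The same 4 had Tet2 values above all Nras values (36.4%, against 6.16%). Igf2r, the maternally expressed receptor that clears IGF2, stood at 8.81, 7.80 and 6.01 against 12.7, 11.3 and 12.5 RPKM (log2 -0.71 ± 0.21). Airn, the noncoding antisense transcript of the same locus (chromosome 17, 12741311 to 12860136, against 12682406 to 12769664 for Igf2r), stood at 1.31, 0.646 and 1.15 against 3.99, 2.66 and 3.64 (log2 -1.77 ± 0.55). The counting is not stated to use strand, so reads of Igf2r and Airn where they overlap cannot be told apart. Kcnq1ot1, an antisense transcript of another imprinted domain, stood at 14.3, 13.8 and 11.3 against 17.6, 15.3 and 17.2 RPKM (log2 -0.36 ± 0.13), and Cdkn1c of that domain made up the 4. In wild type Airn stood at 2.45, 2.65 and 0.621 RPKM and in compound mutants at 2.88, 3.02 and 2.48. The 2 members that stood higher were Ndn (log2 0.28 ± 1.42, negative without Nras replicate 2 or Tet2 replicate 2 and with sex as a term) and Gnas (log2 0.05 ± 0.14). DNA methylation enzymes and readers did not separate, with 12 of 21 higher and a median of 0.04, and Mbd1, a methyl-CpG binding protein, had the smallest p (log2 0.36 ± 0.12).

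The Hox list stood lower in Nras mutants for 12 of 16 tested members, with a median of -0.11, and Hoxa4 had the smallest p, at 3.60, 1.91 and 1.94 against 4.86, 4.005 and 5.99 RPKM (log2 -1.04 ± 0.38). The 13 mitochondrially encoded genes stood lower for 12, with a median of -0.44, but mt-Nd5, a subunit of respiratory complex I, at 157, 116 and 264 against 291, 203 and 267 RPKM overlapped (log2 -0.57 ± 0.29), no member had separate groups, and the libraries were depleted of these transcripts by a kit. Bcl2, which blocks apoptosis, stood at 18.7, 15.2 and 20.5 against 13.1, 11.02 and 12.3 RPKM (log2 0.57 ± 0.18), with 11 of 20 members of the p53 and apoptosis list higher. Bop1, a ribosome assembly factor, stood at 6.83, 7.95 and 11.5 against 18.0, 12.6 and 18.0 (log2 -0.90 ± 0.24), although 17 of 27 genes of MYC targets and ribosome biogenesis stood higher. Medians lay between -0.14 and 0.10 for nuclear oxidative phosphorylation (20 of 36 higher), glycolysis (10 of 25), cholesterol synthesis (7 of 18), the unfolded protein and stress response (11 of 25), ribosomal proteins (25 of 41), Polycomb and trithorax (11 of 25), STAT5 targets (5 of 11), lymphoid priming (5 of 9) and NF-kB genes (5 of 18).

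Of single genes outside those lists, the smallest p with Nras above after Gem, leaving out clone-based and small RNA names, belonged to Slc22a3, an organic cation transporter, at 38.3, 35.5 and 40.9 RPKM in Nras mutants and 23.3, 18.1 and 21.3 in Tet2 mutants (log2 0.88 ± 0.16, limma adjusted p = 0.487). Wild type held 20.2, 19.8 and 17.1 and compound mutants 41.9, 31.3 and 46.4, so the 4 genotypes split by the Nras allele. Coro1a, an actin regulator of leukocytes, stood at 32.6, 33.1 and 32.3 against 24.7, 22.2 and 23.4 RPKM (log2 0.48 ± 0.09), and Bmp2k, a kinase of endocytosis, at 9.42, 9.17 and 9.28 against 5.82, 5.31 and 4.13 (log2 0.88 ± 0.18). Ggt5, a glutamyltransferase that acts on leukotrienes, stood at 5.49, 7.06 and 5.35 against 2.72, 3.15 and 3.87 RPKM. The pseudogenes Hmgb1-ps3 (log2 0.78 ± 0.15) and Hmgb1-ps2 (log2 0.67 ± 0.14) can share reads with Hmgb1 and are uncertain. Robo3, an axon guidance receptor, passed the filter on level only through the Nras libraries, at 1.85, 1.42 and 2.67 RPKM against 0.638, 0.446 and 0.18 (log2 2.37 ± 0.68), with 3.50, 3.25 and 3.06 in compound mutants.

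With Tet2 above and the same names left out, the smallest p belonged to Gda, guanine deaminase of purine salvage, at 1.89, 2.05 and 3.94 RPKM in Nras mutants and 13.4, 9.28 and 10.5 in Tet2 mutants (log2 -2.14 ± 0.37, limma adjusted p = 0.461). Wild type held 11.3, 7.38 and 12.4 and compound mutants 1.91, 2.69 and 4.07, the reverse of Slc22a3 in order of genotype. Plxdc2, a membrane protein, stood at 8.10, 6.92 and 7.32 against 14.5, 12.5 and 15.8 RPKM (log2 -0.93 ± 0.16), and Fut8, which adds core fucose to glycoproteins, at 19.2, 17.9 and 22.8 against 32.6, 47.7 and 33.7 (log2 -0.91 ± 0.19). Both overlapped the Tet2 mutants in wild type, at a mean of 13.7 ± 2.32 and 37.0 ± 6.99 RPKM (SD, n = 3), and the Nras mutants in compound mutants, at 8.65 ± 0.942 and 18.2 ± 2.44.

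Other genes stood apart in another order. Rhoq, a small GTPase of vesicle transport, stood at 1.70, 1.34 and 4.46 RPKM in Nras mutants against 9.09, 8.30 and 8.78 in Tet2 mutants (log2 -2.01 ± 0.37), with wild type and compound mutants between, at 5.58 to 7.15 and 4.71 to 5.83. Rhoq passed without Nras replicate 3 (adjusted p = 0.00241). Gbp2b, an interferon-inducible GTPase with close paralogs that can share reads, stood at 1.01, 1.503 and 1.57 against 13.8, 15.7 and 17.0 RPKM (log2 -3.53 ± 0.66, 11.6-fold lower in Nras mutants, limma adjusted p = 0.487). Its wild-type libraries were split, at 2.60, 14.8 and 1.55 RPKM, and its compound libraries stood with the Tet2 mutants, at 10.2, 13.9 and 18.0. Gbp2b passed without wild-type replicate 2 (adjusted p = 0.0101) and with only the 2 single mutants in the fit (0.0475). Lhcgr, the luteinizing hormone receptor, stood at 5.05, 9.61 and 10.9 against 21.1, 17.8 and 18.2 (log2 -1.23 ± 0.29), and Col4a1, a basement membrane collagen, at 11.8, 9.13 and 12.5 against 22.98, 17.6 and 18.1 (log2 -0.82 ± 0.17). Lrp12, F2rl3, Slc19a1, Crebl2 and Lonrf1 completed the 12 genes of smallest p with Tet2 above, with log2 differences from -1.42 to -0.74. None of the 12 passed in the fit of all 12 libraries.

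Counts of 0 were looked at apart. Of all genes, 3 had 0 reads in all Tet2 libraries and over 3 reads in all Nras libraries, and 15 had the reverse, and neither set held a gene with a named symbol. 1600002K03Rik, which had 0 reads in the 3 wild-type libraries, did not differ between the single mutants beyond their spread, at 5.79, 7.52 and 4.35 RPKM in Nras mutants and 5.44, 1.21 and 3.41 in Tet2 mutants (log2 1.03 ± 0.60, 95% interval -0.32 to 2.37). At the edge of the filter, 881 genes reached 1 RPKM in exactly 3 of the 6 libraries and were kept, and 982 reached it in exactly 2 and were not. Of the genes kept, 34 passed through Nras libraries alone and 74 through Tet2 libraries alone.

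The compound mutants and wild types share no library with the single mutants, and the same genes were read there. Their spread did enter the limma p-values by which the genes were chosen. Compound minus wild type holds the effects of both alleles together, whereas the direct comparison subtracts the Tet2 effect from the Nras effect. A shared sign is therefore not a repeat of the direct comparison. Where effects add, a gene moved only by the Tet2 allele would take the opposite sign. Of the 391 genes higher in Nras than in Tet2 mutants at an unadjusted p under 0.05, 282 (72.1%) also stood higher in compound mutants than in wild type, against 51.7% of all genes tested. Of the 335 lower genes, 213 (63.6%) stood lower in compound mutants, against 48.3% of all. Gem differed by log2 2.66, Slc22a3 by 1.05 and Gda by -1.88 between compound mutants and wild type, with the sign they had between the single mutants. Of the G2/M list 33 of 35 stood higher in compound mutants (median log2 0.52), of the S phase list 29 of 35 (0.34) and of the histones 27 of 35 (0.36), while HSC identity genes stood higher for 18 of 44 (-0.12). Gbp2b had the opposite sign (log2 1.802), imprinted genes had a median of 0.00 with 5 of 11 higher, and Hist1h4f and Ccnb2 differed by 0.09 and 0.29 only.

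**Figure D5:**
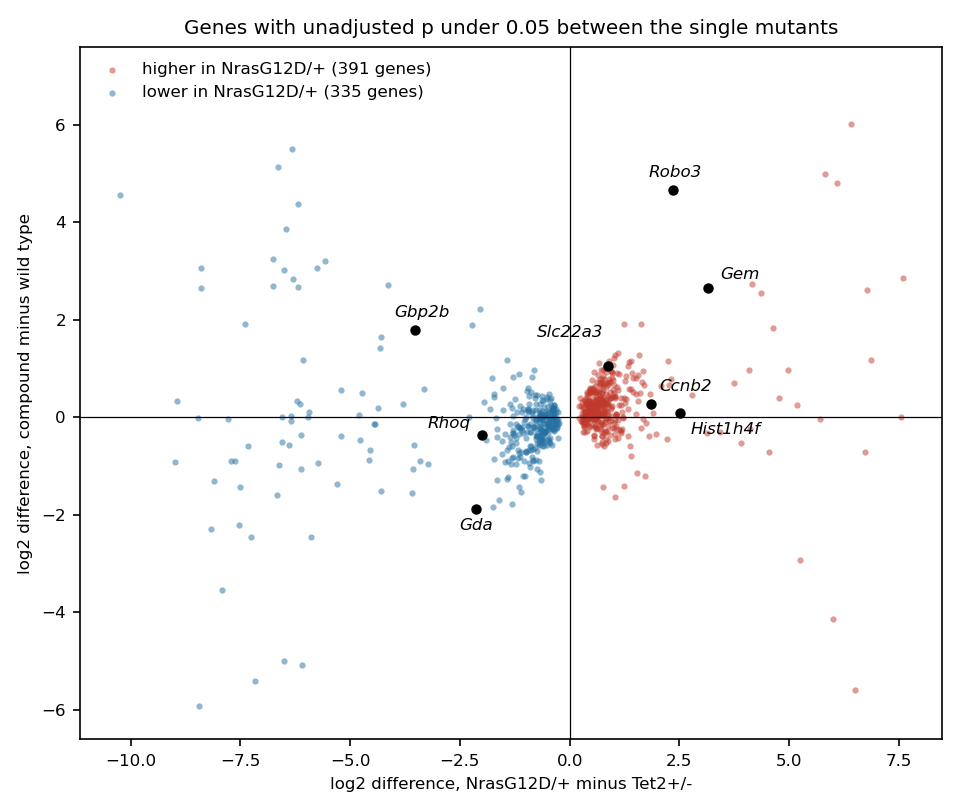
Log2 difference between the single mutants (x axis) and between compound mutants and wild type (y axis, libraries not used on the x axis) for the genes with an unadjusted p under 0.05 between the single mutants. The spread of all 12 libraries entered these p-values. Red points stand higher in Nras mutants and blue points lower; 282 of 391 red points lie above 0 and 213 of 335 blue points below it.

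Beside wild type, the medians of the cell cycle lists lay on both sides of it. By library, however, the Tet2 mutants overlapped wild type in each of these lists, while the Nras mutants lay above wild type. For G2/M genes the Tet2 libraries stood at -0.36, -0.30 and -0.38 and the wild-type libraries at -0.15, -0.53 and -0.18. No direction relative to wild type is therefore given for the Tet2 mutants. Relative to wild type, G2/M genes had a median log2 difference of 0.51 for the Nras allele and -0.20 for loss of 1 Tet2 copy, for S phase genes 0.31 and -0.09, and for histones 0.51 and -0.10. HSC identity genes stood at -0.12 and 0.08, imprinted genes at -0.33 and 0.14 and antigen presentation genes at 0.12 and -0.08. Each pair shares the same 3 wild-type libraries, so the 2 values of a pair are not independent, and medians of a list do not subtract to the median of the direct comparison.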

How the data were processed

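RNA of sorted HSCs was measured by total RNA sequencing in 12 libraries, 3 per genotype. The authors deposited log2 RPKM values for 18546 genes. Per the submitters' processing notes, CASAVA 1.8.2, TopHat2, edgeR and mm10 were used, with no role or order given. The column headers are numeric codes, so the unit is recorded as another unit on a log2 scale, deposited by the authors. Each value gave back a whole number of reads, within 0.001 of a read for all 18546 genes, once a prior of 0.25 reads was removed. Reads in genes numbered 19205045 to 36890942 per library. The lengths implied by the values exceeded the exonic length for 58.0% of 17264 matched symbols, so levels were not compared between genes.

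The filter kept genes at 1 RPKM or more in at least 3 of the 6 single-mutant libraries. limma 3.58.1 (R 4.3.3) fitted 1 mean per genotype over all 12 libraries on the deposited log2 values, with a variance trend and 8 residual degrees of freedom, and p-values were two-sided and Benjamini-Hochberg adjusted over 14139 genes at 0.05. A difference is on the log2 RPKM scale, with the authors' prior in it, and its size is uncertain for low genes. With 1 library near 0 reads it can be large, as for Orc1. On simulated data with 200 of 14139 genes shifted between Nras and Tet2 mutants, the fit recovered 20.0% of shifts of log2 1 and 52.0% of shifts of log2 2, with 2 false calls. Up to 12 genes per direction were named by adjusted call, then by the smallest unadjusted p among genes without overlap, leaving out clone-based, microRNA and sex-linked names, with up to 4 members per list of smallest p and members of opposite direction. Other members were named after their values were seen. The members and the 35 gene lists were chosen with earlier results of these data known. Promoter windows came from RefSeq (GRCm38.p6). Gene coordinates came from GENCODE M21 on mm10.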

Additional observations from a re-analysis of the deposited data

How the results depend on the processing

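The number of genes higher in Nras mutants was 1 in the fit of all 12 libraries. It was 0 with only the 2 groups, with the replicate block, with sex as a covariate, with voom on recovered reads and without Nras replicate 2 and wild-type replicate 1 together (the libraries with the most genes at 0), and 2 with no variance trend (Gem and Gm24378). Leaving out 1 library at a time gave 0 to 1 higher genes and 0 to 10 lower genes, the 10 without Nras replicate 3, Rhoq among them. The lower count of 0 became 2 with only the 2 groups (Gbp2b and Snord111) and 1 without that pair of libraries. Signs turned for 8 named genes, none past the threshold, and their ranges with each library left out were -0.196 to 0.041 for Nras, -1.095 to 0.153 for Hist1h4a, -0.442 to 0.066 for Procr, -0.171 to 0.016 for Kit, -0.259 to 0.192 for Chaf1b, -0.169 to 0.046 for Tapbp, -0.394 to 0.117 for Psmb8 and -0.052 to 0.741 for Ndn. Without that pair of libraries Nras gave 0.041, Chaf1b 0.192 and Ndn -0.003. With sex as a covariate Chaf1b gave 0.028 and Ndn -0.096, and with quality weights Chaf1b gave 0.148 and Tapbp 0.019. The cause was not tested. Of 35 list medians 16 kept their sign over 11 alternatives and 19 did not.

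Over all tested genes, deviations of same-numbered libraries were weakly correlated at most (r from -0.129 to 0.143 over 18 pairs, and -0.001 to 0.046 between Nras and Tet2), and 5 of 12 libraries correlated best with their own number, so the numbers were not taken as pairs, although the immediate early genes followed the number in all 4 genotypes. The replicate block gave 0 higher and 0 lower genes, with Gem at an adjusted p of 0.195. The median SD of log2 values between libraries was 0.379 in Nras and 0.314 in Tet2 mutants.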
